A study of Homo sapiens with 8 samples.

Results

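The data asked whether chidamide changed gene expression differently in rituximab-resistant Raji-4RH cells than in the parental Raji cells. Raji is a human Burkitt lymphoma B cell line, and Raji-4RH is its derivative that was made resistant to the CD20 antibody rituximab. Each line was kept for 24 h with 3 μM chidamide, a histone deacetylase (HDAC) inhibitor, or with DMSO, its solvent. The 4 groups, Raji DMSO, Raji chidamide, Raji-4RH DMSO and Raji-4RH chidamide, held 2 libraries each, so all 8 of the 8 libraries of the series entered the comparison. For each gene the effect of chidamide in Raji (chidamide minus DMSO) was subtracted from the effect in Raji-4RH, and this quantity is called the difference below. It is positive where a gene rose more, or fell less, in Raji-4RH. Values are on the log2(FPKM + 1) scale, where FPKM is the read count of a gene scaled to the length of the gene and to the depth of the library, so the change of genes with a low level is understated. Raji-4RH is a single resistant line, and no label says that the 2 libraries of a group came from separate cultures, so the p-values measure only the spread between these libraries.

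HDACs take acetyl groups off histone tails, and their inhibition raises histone acetylation and can open or close genes. In lymphoma cells HDAC inhibitors are known to stop the cell cycle, in part through the CDK inhibitor p21, and to change the genes of the B cell program. NF-kB factors switch on chemokine, survival and costimulatory genes in B cells, and E2F factors switch on the genes of DNA replication.

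The library totals lay between 13991697 and 21193441 reads, the lowest being replicate 1 of Raji-4RH chidamide. In the deposited table the values of a gene stand from 1 to 14 rows below its label in all but the first part, and each gene was read from the row of its own values. This placed 18143 of 63967 labels and between 90.75% and 93.22% of the reads, and later labels were not analysed here. Every library was closest to the other library of its group. The SD over genes of the difference between the 2 libraries of a group was 0.124 in Raji DMSO, 0.0958 in Raji chidamide, 0.105 in DMSO-treated and 0.191 in chidamide-treated Raji-4RH. All 8 B cell markers (such as MS4A1, CD79A and PAX5) reached 10 FPKM in at least 1 library, while none of the 7 T cell and 6 myeloid markers did. The summed FPKM of the myeloid markers was between 0.917 and 1.04 in the DMSO libraries of both lines, and between 9.71 and 10.9 in the chidamide libraries. The T cell markers summed to between 0.104 and 1.39 FPKM in the Raji libraries and between 4.96 and 14.2 FPKM in the Raji-4RH libraries, and the part of either list in the results was not tested. The NK, erythroid, fibroblast and epithelial lists each summed to at most 6.19 FPKM in any library. The plasma cell list, which shares XBP1 and IRF4 with B cells, summed to between 211 and 477 FPKM. Most of that sum was JCHAIN, at between 172 and 442 FPKM. In bulk RNA, fewer cells of a kind and less RNA per cell cannot be told apart.

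The effect of chidamide differed between the lines for 5231 of the 10710 genes tested, 48.8%, by limma at an adjusted p under 0.05. The difference was positive for 2910 genes (27.2%) and negative for 2321 (21.7%). Within a line, chidamide raised 43.3% and lowered 31.6% of genes in Raji-4RH, and raised 31.5% and lowered 28.5% in Raji. With libraries weighted by group, the numbers called lay closer, at 7573 in Raji-4RH and 7074 in Raji, against 8022 and 6421. The effect was the larger one in Raji-4RH for 4039 of the 5231 genes, 77.2%. The SD of the effect over genes was 0.727 in Raji-4RH and 0.511 in Raji, and the effects of the 2 lines correlated across genes with a Pearson r of 0.688, where genes are not independent replicates. In 676 genes the difference reached 1 on the log2 scale, with 436 positive and 240 negative. The median standard error of a difference was 0.0986, and the median difference over all genes was 0.04.

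The genes that differed fell into several kinds. In 2001 genes both lines moved the same way and Raji-4RH moved further, with 1040 rises and 961 falls. In 404 genes both moved the same way and Raji moved further, with 310 rises and 94 falls. A further 1802 were called in Raji-4RH alone, 601 in Raji alone and 52 in neither line alone. In 371 genes chidamide acted in opposite directions, 225 rising in Raji-4RH and falling in Raji and 146 the reverse. The gap between the lines in level was narrower under chidamide than under DMSO for 1951 of the 5231 genes (37.3%) and wider for 3280. In 190 of the genes called, 3.63%, the direction was the reverse when the gains were compared in FPKM and not on the log2 scale.

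**Figure D1:**
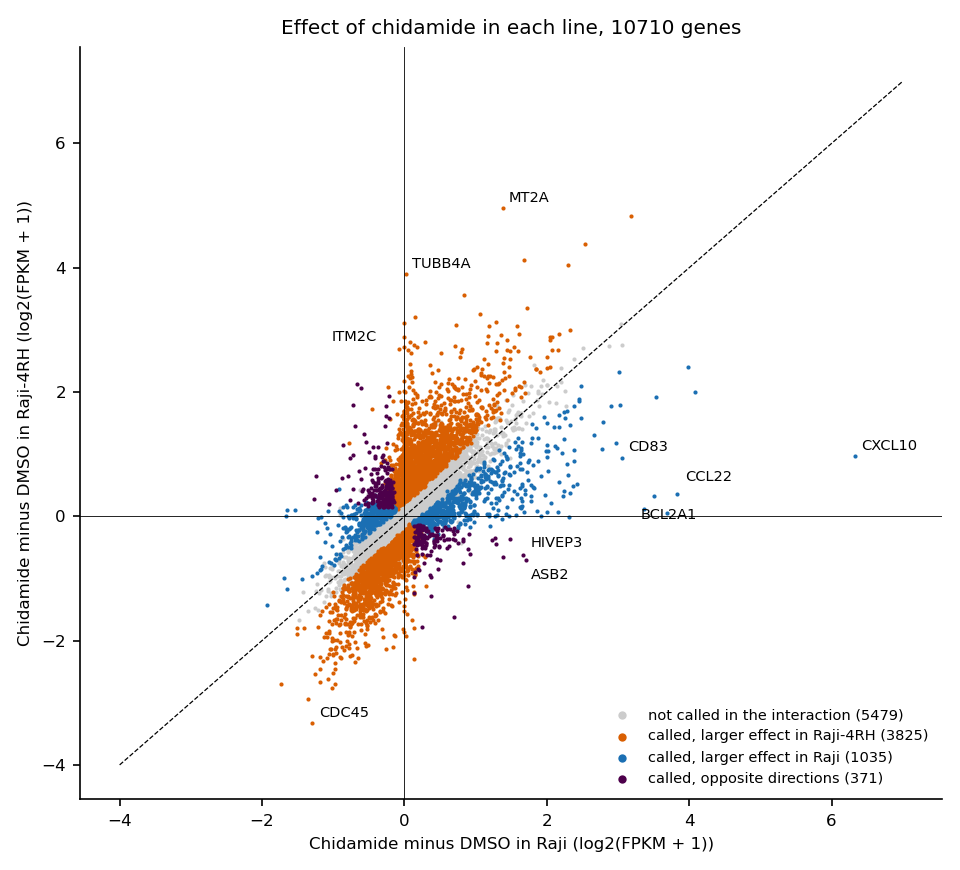
Effect of chidamide in Raji (horizontal) and in Raji-4RH (vertical), both as chidamide minus DMSO in log2(FPKM + 1), with 1 point for each of 10710 genes. The dashed line marks equal effects, grey points are the 5479 genes not called in the interaction, and the 371 genes that moved in opposite directions lie to the upper left and lower right of the origin. CXCL10 lies far to the right and TUBB4A and MT2A lie far above the line.

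Among genes averaging 5 FPKM or more, the most negative differences were those of CXCL10, CCL22 and BCL2A1, which rose in Raji and stayed low in Raji-4RH. CXCL10, an interferon-induced chemokine that attracts T cells (chr4:76021117-76023497, minus strand, GENCODE v29 on GRCh38), was at 1.55 and 1.44 FPKM in Raji DMSO and at 199 and 200.1 FPKM in Raji chidamide. In Raji-4RH it was at 0.136 and 0.12 FPKM with DMSO and at 1.28 and 1.15 FPKM with chidamide. Only the 2 Raji chidamide libraries were high, and both Raji-4RH chidamide libraries stayed below both Raji DMSO libraries. The effect was 6.33 in Raji and 0.97 in Raji-4RH, a difference of -5.36 ± 0.08 (SE, 95% interval -5.55 to -5.17, adjusted p = 2.2e-08, limma).

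CCL22, a chemokine for regulatory T cells (chr16:57358772-57366190), rose from 1.94 and 1.66 to 38.7 and 38.7 FPKM in Raji, and was at 0.0182 and 0.0322 FPKM with DMSO and 0.342 and 0.297 FPKM with chidamide in Raji-4RH. Its level stayed under 1 FPKM in all Raji-4RH libraries, and the difference was -3.46 ± 0.09 (SE, adjusted p = 6.8e-07, limma). On the recovered reads with limma voom, which works on relative change, that difference was -1.14 and no longer called (adjusted p = 0.17). CXCL9, a chemokine of the same receptor as CXCL10, was at 0.259 and 0.308 FPKM in Raji DMSO and at 16.1 and 15.1 FPKM in Raji chidamide, while Raji-4RH gave no read with DMSO and 0.0261 and 0.0396 FPKM with chidamide. BCL2A1, an anti-apoptotic BCL2 relative (chr15:79960889-79971446, minus strand), was at 1.91 and 2.51 FPKM in Raji DMSO and at 34.2 and 36.1 FPKM in Raji chidamide. The Raji-4RH libraries were at 1.32 and 2.34 FPKM with DMSO and at 2.36 and 2.59 FPKM with chidamide, an effect that was not called (0.32, adjusted p = 0.096, limma). The libraries of the 2 lines overlapped in BCL2A1 without the drug and stood far apart with it (difference -3.18 ± 0.22 SE, adjusted p = 2.3e-05, limma).

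CD83, a surface protein of activated B cells (chr6:14117256-14136918), rose in both lines but further in Raji. It went from 23.8 and 23.5 to 203 and 204 FPKM in Raji, and from 14.6 and 13.9 to 25.5 and 31.3 FPKM in Raji-4RH, a difference of -2.11 ± 0.12 (SE, adjusted p = 1.1e-05, limma). PDLIM1, a protein of actin fibres, rose from 3.48 and 3.35 to 21.1 and 20.6 FPKM in Raji and stayed at or under 0.145 FPKM in the 4 Raji-4RH libraries. CYP26A1, which breaks down retinoic acid, was the one gene of the 8 largest negative differences whose value came mainly from a fall in Raji-4RH: it went there from 43.7 and 43.3 to 9.04 and 7.11 FPKM, and was at or under 0.147 FPKM in every Raji library.

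Several of these are textbook targets of NF-kB. In the lists that follow, a positive or negative difference is counted where it was called, to be read beside 27.2% and 21.7% of all genes tested. The balance of these shares depends on the filter on level. Of 20 NF-kB subunits and targets tested, 14 had a negative difference and 1 a positive one, and the median difference was -0.69, beside 0.04 for all genes tested. The median effect was 1.38 in Raji and 0.46 in Raji-4RH, and 15 members rose in Raji and 13 in Raji-4RH. TRAF1, a signalling adaptor, was at 5.87 and 5.95 FPKM in Raji DMSO and at 36.2 and 36 FPKM in Raji chidamide, against 4.25 and 4.17 FPKM and then 5.73 and 7.32 FPKM in Raji-4RH (difference -1.90). ICAM1, an adhesion molecule, rose by 1.28 in Raji and fell by 0.34 in Raji-4RH. The inhibitors of the pathway followed the same order. TNFAIP3, which encodes A20, rose by 3.02 in Raji and 1.79 in Raji-4RH, and NFKBIA, which encodes IkB alpha, rose by 1.91 and 0.65. TNFAIP2 was the exception, at or under 0.0563 FPKM in all Raji libraries and without the drug in Raji-4RH, and at 2.46 and 2.57 FPKM in Raji-4RH chidamide (difference 1.73 ± 0.08 SE, adjusted p = 4.4e-06, limma). It passed the filter on level through that group alone, so its direction follows in part from the filter. EBI3, a cytokine subunit, was called at -1.27. With a pseudocount of 0.1 FPKM it was called in the other direction, at 0.71 (adjusted p = 0.006, limma). It rose from 9.94 and 8.31 FPKM to 66.7 and 70.2 FPKM in Raji and from 0.0831 and 0.0735 FPKM to 1.95 and 2.2 FPKM in Raji-4RH.

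The promoters of CXCL10 and CCL22 are shown because these had the most negative differences among chemokines averaging 5 FPKM or more. They are the 250 bases before the start in RefSeq on GRCh38.p14, chr4:76023498-76023747 on the minus strand and chr16:57358533-57358782 on the plus strand, read 5′ to 3′. Capitals mark matches to the NF-kB consensus on either strand, 2 in CXCL10 and 1 in CCL22.
CXCL10: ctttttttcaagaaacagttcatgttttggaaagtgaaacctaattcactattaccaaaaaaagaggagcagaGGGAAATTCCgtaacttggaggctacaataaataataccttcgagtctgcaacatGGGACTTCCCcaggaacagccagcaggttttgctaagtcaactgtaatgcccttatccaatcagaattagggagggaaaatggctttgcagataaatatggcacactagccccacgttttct
CCL22: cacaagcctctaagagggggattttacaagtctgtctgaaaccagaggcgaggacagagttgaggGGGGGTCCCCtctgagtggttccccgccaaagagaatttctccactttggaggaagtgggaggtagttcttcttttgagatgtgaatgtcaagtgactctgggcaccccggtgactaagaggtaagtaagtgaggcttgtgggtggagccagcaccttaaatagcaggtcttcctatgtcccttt
The consensus was found in 7 of the 16 promoters of tested NF-kB list members (43.8%), in 5.84% of the 8386 promoters of tested genes and in 5.05% of all 27305 promoters. Of the 8 largest negative differences, 2 had a match in this window. A match is a description of the letters and was not tested as a site of binding.

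Among 12 chemokines and chemokine receptors, 6 had a negative and 3 a positive difference (median -0.65). CCR7, the receptor that guides B cells into lymph nodes, rose in both lines, from 3.69 and 3.58 to 69 and 75.4 FPKM in Raji and from 0.489 and 0.433 to 6.44 and 6.99 FPKM in Raji-4RH. Its difference was -1.58, and it was not called on the recovered reads (-0.46, adjusted p = 0.23, limma voom). CCL17, which shares a receptor with CCL22, rose from 0.49 and 0.721 to 3.44 and 4.03 FPKM in Raji and was at 0.172 FPKM or less in Raji-4RH, where 1 library had no read, and its difference of -1.54 was not called on the recovered reads (-1.80, adjusted p = 0.21, limma voom). CXCR4, the receptor for CXCL12, went the other way. It rose from 66.2 and 69.1 to 89.8 and 82.6 FPKM in Raji and from 61 and 62.3 to 137 and 151 FPKM in Raji-4RH (difference 0.87 ± 0.09 SE, adjusted p = 0.00018, limma).

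**Figure D2:**
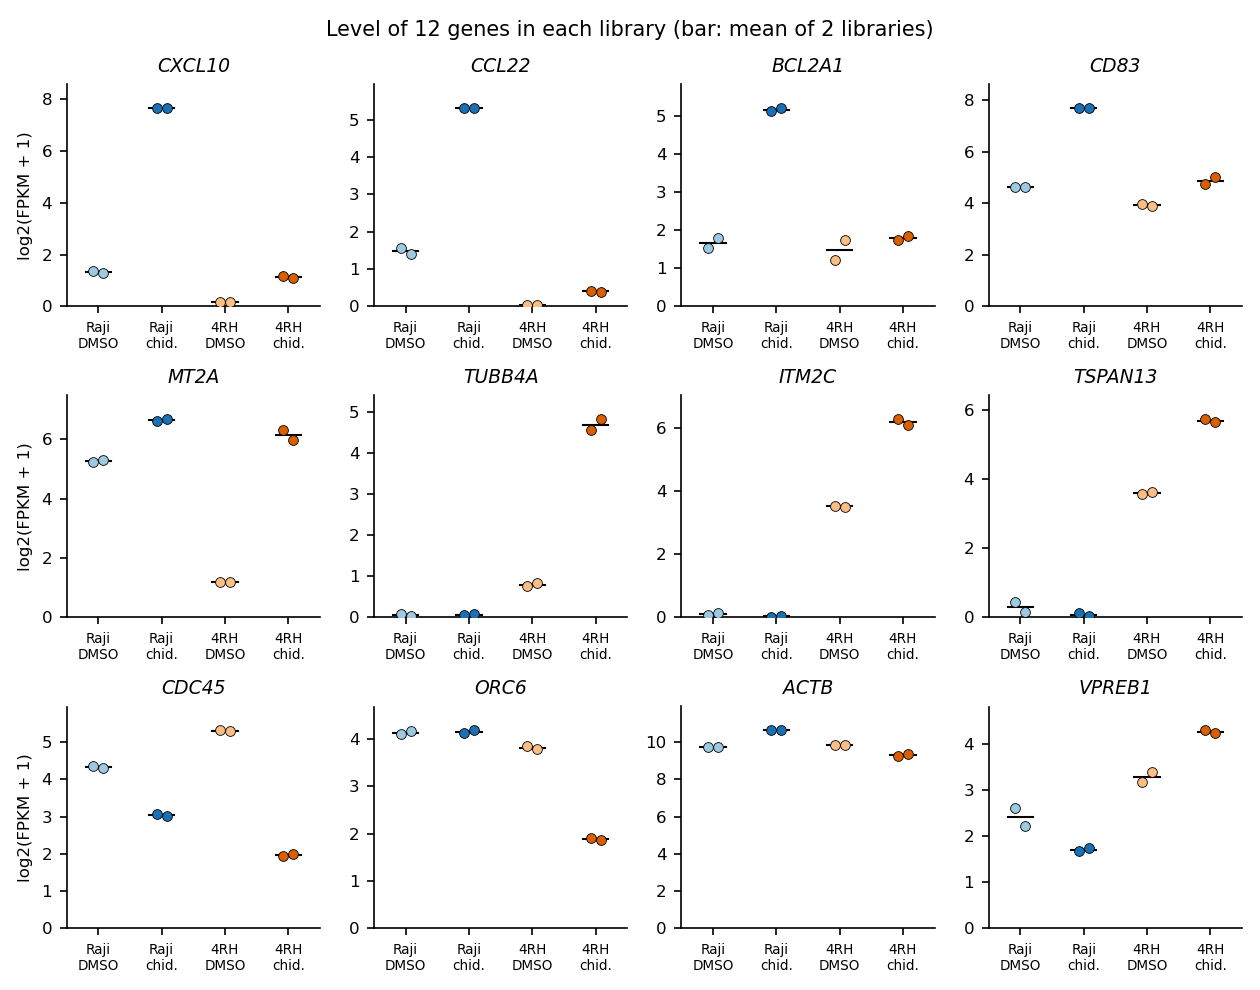
Level of 12 genes in each of the 8 libraries, as log2(FPKM + 1), with each library as a point and the mean of the 2 libraries of a group as a bar. CXCL10, CCL22, BCL2A1 and CD83 stand out in Raji chidamide (Raji chid.). MT2A rose most in Raji-4RH, TUBB4A, ITM2C and TSPAN13 reached their highest level in Raji-4RH chidamide (4RH chid.), CDC45 and ORC6 their lowest, and ACTB and VPREB1 moved in opposite directions in the 2 lines.

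Of 10 genes of MHC class II and its regulators, 6 had a negative difference, none a positive one and 4 were not called (median -0.41, limma). CIITA, the master regulator of MHC class II genes (chr16:10866222-10943021), rose from 15.5 and 14.5 to 45.9 and 48.3 FPKM in Raji and from 11.6 and 11.5 to 14.3 and 16 FPKM in Raji-4RH. The lines were close in CIITA with DMSO, and with chidamide both Raji libraries were far above both Raji-4RH libraries (difference -1.23 ± 0.09 SE, adjusted p = 3.4e-05, limma). CD74, the invariant chain, rose from 529 and 516 to 1284 and 1317 FPKM in Raji and from 590 and 615 to 905 and 985 FPKM in Raji-4RH. HLA-DQA1 rose by 2.01 in Raji and 1.05 in Raji-4RH, and reads of HLA genes can be split between near-identical copies.

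Of 19 costimulatory and checkpoint ligands, 10 had a negative and 2 a positive difference (median -0.35), while the median effect was 0.47 in Raji-4RH and 0.39 in Raji. CD40 rose from 16.7 and 17.9 to 56.4 and 56.3 FPKM in Raji and from 13.2 and 12.9 to 23.2 and 22.3 FPKM in Raji-4RH. CD48, the ligand of the NK receptor 2B4, was the lowest of the list and fell in Raji-4RH from 27.3 and 26.8 to 10.8 and 11.1 FPKM, while Raji went from 30.4 and 32.1 to 34.6 and 34.3 FPKM (difference -1.37 ± 0.07 SE, adjusted p = 8e-06, limma). CD274, which encodes PD-L1, stayed at or under 2.27 FPKM in all libraries. Its difference of -0.89 was not called with a pseudocount of 0.1 FPKM (adjusted p = 0.07, limma). On the recovered reads it was -0.42 and not called either (adjusted p = 0.71, limma voom). SLAMF1 had a difference of -1.16 that was not called on the recovered reads (-0.53, adjusted p = 0.2, limma voom).

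The genes of B cell receptor signalling were split. Of 25 tested, 11 had a negative difference, 3 a positive one and 11 were not called. CR2, the complement receptor CD21, was at 31.4 and 33.4 FPKM in Raji DMSO and at 127 and 125 FPKM in Raji chidamide, and at most at 0.161 FPKM in Raji-4RH with or without the drug. SYK, the kinase next to the receptor, rose from 52.1 and 53.6 to 80.8 and 79.8 FPKM in Raji and was at 24.2 and 24.1 FPKM and then 24.2 and 26 FPKM in Raji-4RH. PTPN6, the phosphatase SHP-1, rose by 1.99 in Raji and 1.04 in Raji-4RH. MS4A1, which encodes the rituximab target CD20 and is among the B cell markers, rose from 53.8 and 58.7 to 129 and 118 FPKM in Raji and from 12.5 and 12.9 to 22 and 25.3 FPKM in Raji-4RH. Its difference of -0.28 (95% interval -0.54 to -0.02) was not called (adjusted p = 0.07, limma), but was called with median-centred libraries (-0.32, adjusted p = 0.036, limma) and without replicate 2 of Raji-4RH chidamide (-0.38, adjusted p = 0.0092, limma). In the positive direction, FCGR2B, the inhibitory Fc receptor, rose from 0.232 and 0.184 to 2.97 and 3.09 FPKM in Raji-4RH and from 6.94 and 6.93 to 10.3 and 9.13 FPKM in Raji. Of 9 complement receptors and regulators, 3 had a positive and 2 a negative difference. CD59, which blocks the membrane attack complex, rose in Raji-4RH from 3.42 and 4.18 to 9.73 and 8.77 FPKM and was between 10.4 and 10.8 FPKM in Raji.

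Among 23 B cell transcription factors, 12 had a positive and 6 a negative difference (median 0.27). IRF4, a factor of activated B cells and plasma cells, rose from 0.498 and 0.572 to 5.04 and 5.36 FPKM in Raji and from 2.03 and 1.89 to 3.54 and 4.29 FPKM in Raji-4RH, so the order of the lines was reversed. IKZF1, which encodes Ikaros, fell in Raji-4RH from 24.1 and 24.2 to 11.5 and 12 FPKM and rose in Raji from 17.6 and 17.9 to 19.3 and 20.1 FPKM. Its relative IKZF3, Aiolos, fell by 1.52 in Raji-4RH and by 0.63 in Raji. PAX5, the factor that holds B cell identity, fell from 27.4 and 30.6 to 17.8 and 19.5 FPKM in Raji-4RH and, with no call, went from 35.7 and 36.7 to 40.6 and 41.6 FPKM in Raji (difference -0.79 ± 0.10 SE, adjusted p = 0.00035, limma). BACH2, a repressor of plasma cell fate, was the highest of the list because it fell in Raji, from 5.36 and 3.9 to 1.43 and 1.73 FPKM, and was between 35.4 and 40.6 FPKM in all Raji-4RH libraries.

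The interferon genes had no common direction. Of 29 tested, 10 had a positive and 12 a negative difference, although 24 rose in Raji-4RH and 26 in Raji. IFIT3 rose by 2.66 in Raji and 1.30 in Raji-4RH. The oligoadenylate synthetases OAS1 and OAS3 rose further in Raji-4RH. OAS3 went from 0.297 and 0.217 to 3.98 and 4.21 FPKM there, and from 0.0859 and 0.0782 to 0.353 and 0.425 FPKM in Raji (difference 1.66). LGALS3BP, a secreted galectin ligand, was the highest of the list, rising from 0.402 and 0.434 to 5.01 and 7.65 FPKM in Raji-4RH and from 0.989 and 1.19 to 1.83 and 1.97 FPKM in Raji (difference 1.87 ± 0.21 SE, adjusted p = 0.0002, limma). IFITM1, a membrane protein that blocks virus entry, fell from 34.6 and 36.3 to 15.3 and 12.8 FPKM in Raji-4RH and was at or under 0.489 FPKM in Raji. TRIM22 fell in Raji-4RH from 4.25 and 4.26 to 1.92 and 2.31 FPKM and rose in Raji from 2 and 2.49 to 4.84 and 4.59 FPKM. IFI6 rose by 4.83 in Raji-4RH and 3.18 in Raji, while its gain in Raji-4RH minus that in Raji was -2.19 in FPKM. The IFITM genes are near-identical neighbours whose reads may have been split.

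Genes of the cell cycle fell in both lines and further in Raji-4RH. Of 41 S phase genes tested, 39 had a negative difference, none a positive one and 2 were not called (median -0.99, limma). All 41 fell in Raji-4RH and 36 in Raji, with a median effect of -1.76 and -0.70. Of 51 G2/M genes, 42 had a negative difference and 1 a positive one (median -0.73), and the median effect was -1.12 in Raji-4RH and -0.41 in Raji. The exception was CBX5, which encodes the heterochromatin protein HP1 alpha. It was between 16 and 17.2 FPKM in all Raji-4RH libraries and fell in Raji from 18.6 and 19.6 to 12.7 and 13.1 FPKM.

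CDC45, a part of the replicative helicase (chr22:19479459-19520612), had the lowest value of the S phase list. It fell from 38.8 and 38.2 to 2.86 and 3 FPKM in Raji-4RH and from 19.7 and 18.8 to 7.45 and 7.07 FPKM in Raji. Raji-4RH was thus above Raji without the drug and below it with the drug (difference -2.04 ± 0.08 SE, adjusted p = 2.3e-06, limma). ORC6, a subunit of the origin recognition complex (chr16:46689643-46698394), fell from 13.4 and 12.8 to 2.75 and 2.66 FPKM in Raji-4RH and was between 16.2 and 17.2 FPKM in all Raji libraries (difference -1.95 ± 0.08 SE, adjusted p = 3e-06, limma). KIF2C, a mitotic kinesin, fell from 40.1 and 40.5 to 13.8 and 14.7 FPKM in Raji-4RH and from 31.9 and 32.6 to 27.6 and 29.1 FPKM in Raji, the lowest of the G2/M list at -1.26.

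DTL, which marks replication proteins for destruction, had the most negative difference among S phase members whose promoter holds an E2F motif. CDK1, the mitotic kinase, had the most negative one among G2/M members whose promoter holds a CHR motif. Their windows are shown as an example of each motif. The E2F motif was searched as TTTGGCGC, TTTCCCGC, TTTGCCGC or TTTCGCGC and the CHR, a cell cycle element of G2/M promoters, as TTTGAA, both on either strand. The windows are chr1:212035498-212035747 for DTL and chr10:60778081-60778330 for CDK1, both on the plus strand, with capitals for the motif.
DTL: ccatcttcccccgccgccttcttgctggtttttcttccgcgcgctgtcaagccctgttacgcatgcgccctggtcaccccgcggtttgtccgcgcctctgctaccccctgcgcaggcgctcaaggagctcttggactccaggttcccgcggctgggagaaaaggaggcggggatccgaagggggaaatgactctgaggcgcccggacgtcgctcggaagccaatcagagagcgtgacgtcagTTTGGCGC
CDK1: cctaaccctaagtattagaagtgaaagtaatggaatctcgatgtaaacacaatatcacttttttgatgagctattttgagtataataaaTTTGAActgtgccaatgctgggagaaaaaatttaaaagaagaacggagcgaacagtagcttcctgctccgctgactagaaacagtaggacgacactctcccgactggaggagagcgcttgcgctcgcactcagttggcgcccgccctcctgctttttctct
An E2F motif was found in 10 of 30 S phase promoters (33.3%), in 2 of 43 G2/M promoters (4.65%) and in 4.53% of the promoters of tested genes. The CHR was found in 23 of the 43 G2/M promoters (53.5%), in 2 of the 30 S phase promoters (6.67%) and in 8.14% of those of tested genes. DTL fell by 2.34 in Raji-4RH and 0.69 in Raji, and CDK1 by 1.62 and 0.46.

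The E2F factors, which regulate these genes, mostly fell further in Raji-4RH as well. Of 9 E2F factors and partners, 5 had a negative and 1 a positive difference (median -0.61). E2F2 (chr1:23506430-23531220, minus strand) fell from 29.9 and 32.5 to 3.43 and 4.57 FPKM in Raji-4RH and from 39.2 and 37.3 to 19 and 18.8 FPKM in Raji (difference -1.72 ± 0.14 SE, adjusted p = 4.5e-05, limma). E2F1 fell from 87 and 92.3 to 20.4 and 19.8 FPKM in Raji-4RH and from 61.1 and 57.1 to 32.4 and 31.3 FPKM in Raji (difference -1.23 ± 0.08 SE, adjusted p = 1.8e-05, limma). E2F8, a repressor of the family, fell by 2.13 and 1.05. TFDP2, a dimer partner, fell by 0.52 in Raji and had an effect of 0.12 in Raji-4RH that was not called (adjusted p = 0.079, limma).

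CDKN1A, which encodes p21, rose from 10.7 and 10.1 to 51.6 and 51.4 FPKM in Raji and from 28.8 and 32.6 to 161 and 169 FPKM in Raji-4RH. On the log2 scale the effects were 2.20 and 2.39, with a difference of 0.19 (95% interval -0.03 to 0.41) that was not called (adjusted p = 0.13, limma), although with quantile normalization it was 0.37 and called (adjusted p = 0.016, limma). The gain in FPKM was larger in Raji-4RH, from its higher start. CDKN1B, which encodes p27, rose by 1.25 in Raji and 1.41 in Raji-4RH, a difference of 0.16 (95% interval -0.08 to 0.39, adjusted p = 0.23, limma) that was called at 0.38 with a pseudocount of 0.1 FPKM (adjusted p = 0.033, limma), and its gain in FPKM was larger in Raji. Over the 10 CDK inhibitors and pocket proteins, 3 had a positive and 2 a negative difference, close to the shares of all genes tested. CDKN2A fell in Raji-4RH from 24.6 and 26.1 to 17 and 16.5 FPKM and was between 15.6 and 19 FPKM in Raji. RB1, the retinoblastoma protein, rose by 1.07 in Raji-4RH and 0.67 in Raji.

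The cyclins and kinases that the study followed by other methods fell further in Raji-4RH. CCNA2, cyclin A2, fell from 46.8 and 46.3 to 8.48 and 9.43 FPKM in Raji-4RH and from 65.1 and 67.5 to 29 and 28.1 FPKM in Raji (difference -1.07 ± 0.08 SE, adjusted p = 3.7e-05, limma), while the same difference in FPKM was 0.214. CCNB1, cyclin B1, had a difference of -0.84, CDK2 of -0.67 and CCND3, cyclin D3, of -0.63. BTG1, an antiproliferative gene often mutated in lymphoma (chr12:92140278-92145897, minus strand), rose from 11.2 and 11.8 to 40.7 and 46 FPKM in Raji-4RH and from 9.24 and 10 to 18.8 and 18.7 FPKM in Raji. The lines were close without the drug, and with it both Raji-4RH libraries were far above both Raji libraries (difference 0.93 ± 0.10 SE, adjusted p = 0.00017, limma). Of the 5 BTG and TOB genes, 4 were called with a positive difference and none with a negative one. BTG2 rose by 1.88 in Raji-4RH and 1.24 in Raji, with a gain in Raji-4RH minus that in Raji of -31.9 in FPKM. FOXO1, a factor upstream of cell cycle inhibitors, rose from 11 and 10.8 to 22.9 and 24.9 FPKM in Raji-4RH and from 10 and 9.74 to 16.7 and 16.3 FPKM in Raji (difference 0.37 ± 0.08 SE, adjusted p = 0.0056, limma).

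The largest positive differences were genes that chidamide raised in Raji-4RH. TUBB4A, a tubulin normally made in neurons (chr19:6494319-6502848, minus strand), was at 0.692 and 0.79 FPKM in Raji-4RH DMSO and reached 22.7 and 27.5 FPKM with chidamide. Every Raji library was at or under 0.0584 FPKM, with or without the drug, and the difference was 3.88 ± 0.12 (SE, adjusted p = 1.4e-06, limma). TUBB4A passed the filter on level only through Raji-4RH chidamide, so this direction follows in part from the filter. The tubulin list as a whole divided, with 4 positive and 5 negative differences among 13. TUBA1A and TUBB2A rose in both lines and further in Raji-4RH (differences 0.94 and 1.28), and TUBA1B, the main alpha tubulin of dividing cells, fell in both and further in Raji-4RH, from 318 and 319 to 128 and 164 FPKM against 341 and 325 to 233 and 236 FPKM in Raji. Tubulin genes are close copies, and reads may have been split between them.

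MT2A and MT1X are metallothioneins, small proteins that bind zinc and copper. MT2A (chr16:56608199-56609497) was low in Raji-4RH DMSO, at 1.27 and 1.31 FPKM, and rose to 79.7 and 61.9 FPKM with chidamide. In Raji it was at 36.8 and 38.9 FPKM with DMSO and 98.4 and 102 FPKM with chidamide, so the drug brought the 2 lines closer (difference 3.58 ± 0.14 SE, adjusted p = 3e-06, limma). MT1X (chr16:56682424-56684196) was at 1.44 and 1.52 FPKM in Raji-4RH DMSO and at 20.1 and 11.8 FPKM with chidamide, while in Raji it was between 10 and 12.8 FPKM in all 4 libraries. SLC30A1, the zinc exporter, rose by 1.34 in Raji-4RH and 0.31 in Raji. In all, 11 metallothionein and zinc response genes were placed and 5 passed the filter on level. Of the 5 tested, 4 had a positive difference and none a negative one.

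The promoters of both metallothioneins are shown because each holds several matches to the metal response element, the element that the zinc sensor MTF1 binds. The windows are chr16:56608334-56608583 and chr16:56682220-56682469 on the plus strand, and capitals mark TGCACNC or TGCGCNC on either strand, found 7 times in MT2A and 4 times in MT1X.
MT2A: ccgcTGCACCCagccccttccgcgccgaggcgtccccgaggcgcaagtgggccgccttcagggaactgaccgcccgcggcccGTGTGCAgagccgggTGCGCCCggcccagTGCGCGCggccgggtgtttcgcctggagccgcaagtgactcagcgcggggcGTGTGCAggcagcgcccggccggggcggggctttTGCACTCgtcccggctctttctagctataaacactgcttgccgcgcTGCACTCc
MT1X: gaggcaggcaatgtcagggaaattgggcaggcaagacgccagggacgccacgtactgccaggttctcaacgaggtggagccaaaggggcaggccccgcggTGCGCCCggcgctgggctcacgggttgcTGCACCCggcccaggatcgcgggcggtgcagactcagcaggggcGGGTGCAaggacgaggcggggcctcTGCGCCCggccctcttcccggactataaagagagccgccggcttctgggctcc
At least 1 element was in 33.8% of the promoters of tested genes, so its presence alone is common. Among the tested metallothionein and zinc response genes, 3 of 5 promoters (60%) held the element. The matches were not tested as sites of binding.

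The other genes of this group were near silent in Raji or raised from near silence in Raji-4RH. ITM2C, a membrane protein that binds amyloid precursor protein, rose from 10.6 and 10.4 to 77.2 and 68.4 FPKM in Raji-4RH and was at or under 0.0951 FPKM in every Raji library. TSPAN13, a tetraspanin, rose from 10.8 and 11.4 to 51.7 and 48.5 FPKM in Raji-4RH and was at or under 0.364 FPKM in Raji. GNG8, a G protein gamma subunit, rose from 0.494 and 0.874 to 31.1 and 25.4 FPKM in Raji-4RH and, from at most 0.234 FPKM, to 3.59 and 1.78 FPKM in Raji, and its difference of 2.44 was not called with a pseudocount of 0.1 FPKM (1.36, adjusted p = 0.18, limma). SMIM14 rose from 0.373 and 0.33 to 15.4 and 14.5 FPKM in Raji-4RH and from 27.4 and 28 to 51.2 and 49.3 FPKM in Raji, so its difference of 2.72 on the log2 scale goes with a larger gain in FPKM in Raji (gain in Raji-4RH minus gain in Raji of -7.94 FPKM). GNG7, by contrast, was expressed in both lines, rising from 8.34 and 8.76 to 35.5 and 35.8 FPKM in Raji-4RH and falling from 35.2 and 32.2 to 28.7 and 28.9 FPKM in Raji.

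Chidamide moved 371 genes in opposite directions, and 250 of these averaged 5 FPKM or more. ACTB, beta actin (chr7:5527147-5563784, minus strand), was among the most abundant. It rose in Raji from 852 and 863 to 1594 and 1588 FPKM and fell in Raji-4RH from 905 and 934 to 620 and 657 FPKM (difference -1.42 ± 0.09 SE, adjusted p = 1.4e-05, limma). SCIMP, an adaptor of MHC class II signalling, rose in Raji from 2.89 and 3.31 to 6.82 and 6.34 FPKM and fell in Raji-4RH from 10.2 and 10.4 to 4.3 and 4.04 FPKM. In both genes the order of the lines under chidamide was the reverse of that under DMSO. ASB2, a ubiquitin ligase subunit, IL32, a cytokine, and HIVEP3, a zinc finger factor, were low in Raji and high in Raji-4RH and moved toward each other. IL32, for example, rose from 0.379 and 0.464 to 2.45 and 3.01 FPKM in Raji and fell from 47.3 and 49.3 to 29.4 and 31.1 FPKM in Raji-4RH.

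Of the genes that rose in Raji-4RH and fell in Raji, METRNL, a secreted protein, was the largest of those chosen by the smaller of its 2 effects. It rose from 2.44 and 2.95 to 7.21 and 7.09 FPKM in Raji-4RH and fell from 7.89 and 7.6 to 3.55 and 4.08 FPKM in Raji, so the lines changed places. VPREB1, a part of the surrogate light chain of early B cells, rose from 8.05 and 9.5 to 18.7 and 17.9 FPKM in Raji-4RH and fell from 5.16 and 3.68 to 2.19 and 2.35 FPKM in Raji. RGCC, a cell cycle regulator, fell in Raji from 48.4 and 47 to 19.4 and 19.7 FPKM and rose in Raji-4RH from 1.24 and 1.78 to 2.84 and 2.95 FPKM. RASSF6 and BMP7, a growth factor of the TGF-beta family, moved toward each other in the lines. BMP7 fell in Raji from 37.6 and 31.7 to 22.5 and 21.2 FPKM and rose in Raji-4RH from 14.4 and 15.4 to 23.4 and 27.6 FPKM.

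**Figure D3:**
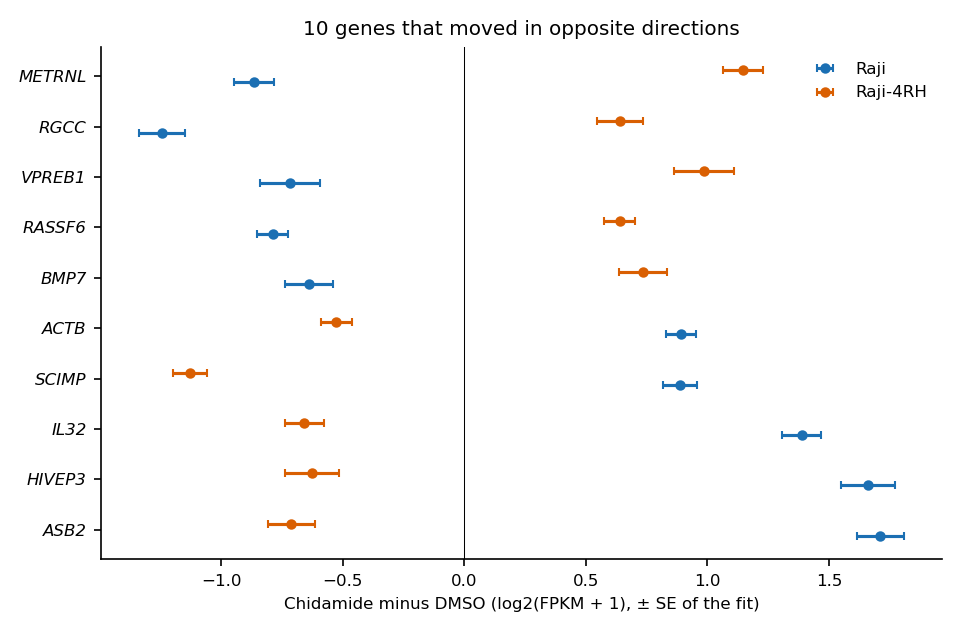
Effect of chidamide (chidamide minus DMSO in log2(FPKM + 1), ± SE of the limma fit) in Raji (blue) and in Raji-4RH (orange) for the 10 genes chosen among those that moved in opposite directions. Each gene has 1 point on either side of the line at 0, from ASB2 at the bottom, with a difference of -2.42, to METRNL at the top, with a difference of 2.01.

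Some genes called in the interaction had a call in 1 line and an effect under 0.1, not called, in the other. Of those averaging 5 FPKM or more, 554 had the call in Raji-4RH and 238 in Raji. A change near 0 FPKM is small on this scale. The counts thus mix genes near silent in the other line, such as TUBB4A and ITM2C, with genes expressed there, such as ORC6. Besides TUBB4A, ITM2C and ORC6, the first kind included HHEX, a homeobox factor, which rose from 4.62 and 4.48 to 17.4 and 17.5 FPKM in Raji-4RH. It was at or under 0.0577 FPKM in Raji, and its difference was not called on the recovered reads (0.35, adjusted p = 0.77, limma voom). CD38, a surface enzyme of germinal centre and plasma cells, rose from 4.09 and 4.06 to 14.3 and 14.9 FPKM in Raji-4RH and was between 31.6 and 33.8 FPKM in Raji. Of the second kind, TYK2, a kinase of interferon receptors, rose from 25.5 and 22.6 to 58.1 and 60.6 FPKM in Raji and was between 19.4 and 21 FPKM in Raji-4RH. PLCB3, a phospholipase, rose from 1.06 and 1.08 to 6.86 and 7.69 FPKM in Raji, toward the 9.11 to 10.2 FPKM of the Raji-4RH libraries. CRIP3 rose from 9.56 and 10.3 to 26.4 and 26 FPKM in Raji and was at or under 0.117 FPKM in Raji-4RH, and its difference was 0.01 on the recovered reads and not called (adjusted p = 0.99, limma voom).

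Some strong responses were alike. Both effects reached 1 in size, with the same sign, in 197 genes whose mean level was 5 FPKM or more, and 141 of these were rises. The difference was called in 93 as larger in Raji-4RH and in 28 as larger in Raji, and 76 were not called. In 7 the 95% interval of the difference lay within -0.25 to 0.25. TP63, a relative of p53, rose from 2.68 and 2.54 to 12.2 and 12.2 FPKM in Raji and from 2.25 and 2.27 to 10.5 and 11.5 FPKM in Raji-4RH (difference 0.01, 95% interval -0.19 to 0.21). ASMTL and ARL6IP5 were the other rises named, with differences of 0.06 and -0.06. The falls were FAM136A, from 45.2 and 47 to 19.2 and 20 FPKM in Raji and from 52.6 and 51.8 to 23 and 20.4 FPKM in Raji-4RH, with BDH1 and PMF1. FAM136A had an interval of -0.25 to 0.17, and with quantile normalization ASMTL was called at 0.27 (adjusted p = 0.013, limma).

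Several groups of housekeeping genes fell further in Raji-4RH, by smaller amounts. Of 33 proteasome subunits, 25 had a negative difference and none a positive one (median -0.32), and 29 fell in Raji-4RH against 17 in Raji. PSMC4, an ATPase of the proteasome cap, fell in Raji-4RH from 52.9 and 56 to 41.7 and 43.1 FPKM and rose in Raji from 49.5 and 49.2 to 64.8 and 71 FPKM. Of 52 spliceosome genes, 22 had a negative and 2 a positive difference (median -0.24), and of 31 ribosome biogenesis genes 15 and none (median -0.22). NOLC1, a nucleolar chaperone, fell from 94.9 and 94.5 to 37.7 and 38.3 FPKM in Raji-4RH and from 88 and 90.5 to 67.6 and 68.9 FPKM in Raji. Glycolysis had 11 negative and 4 positive differences among 22 genes. LDHA, lactate dehydrogenase, fell from 209 and 211 to 68.6 and 66.9 FPKM in Raji-4RH and from 229 and 249 to 159 and 159 FPKM in Raji (difference -1.03 ± 0.08 SE, adjusted p = 3.4e-05, limma). ENO2, the neuronal enolase, rose in both lines from under 1 FPKM and further in Raji-4RH.

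Cholesterol synthesis had 12 negative and 5 positive differences among 24 genes (median -0.37), and 16 members rose in Raji against 11 in Raji-4RH. LSS, lanosterol synthase, rose from 20.1 and 19 to 38.4 and 40.2 FPKM in Raji and was between 18.6 and 20.3 FPKM in Raji-4RH, whereas TM7SF2, a later enzyme, rose to 29.9 and 30.8 FPKM in Raji-4RH and to 16.8 and 17.6 FPKM in Raji. Among 27 genes of the unfolded protein and integrated stress responses, 11 had a negative and 4 a positive difference. DDIT4, an inhibitor of mTORC1, rose from 20.4 and 17.9 to 100.5 and 105 FPKM in Raji and from 50 and 51.7 to 73.3 and 69.3 FPKM in Raji-4RH (difference -1.89 ± 0.10 SE, adjusted p = 7.2e-06, limma). Over the list, 15 members fell and 10 rose in Raji-4RH, and 9 fell and 8 rose in Raji. CHAC1, TRIB3 and SESN2, which are among the targets of ATF4, were named after their values were seen. They fell in Raji-4RH by 1.93, 1.43 and 0.97. In Raji, CHAC1 and TRIB3 had effects of -0.13 and -0.19 that were not called, and SESN2 rose by 0.37. With DMSO their means were 15.8, 30.8 and 16.8 FPKM in Raji-4RH against 3.21, 5.07 and 9.72 FPKM in Raji. XBP1 was the highest of the list, rising from 20.2 and 20.2 to 29.1 and 33.5 FPKM in Raji-4RH, against 33.2 and 33.3 and then 29.7 and 30.3 FPKM in Raji.

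Autophagy and lysosome genes had 14 positive and 6 negative differences among 43 and a median of 0.13. MAP1LC3B, which encodes the autophagosome protein LC3B, rose from 10.3 and 9.31 to 13.2 and 13.5 FPKM in Raji-4RH and was between 7.08 and 7.59 FPKM in Raji (difference 0.47 ± 0.09 SE, adjusted p = 0.0027, limma). SQSTM1, the receptor p62, had a difference of 0.04 (95% interval -0.18 to 0.26, adjusted p = 0.77, limma). Of 17 histone deacetylases, sirtuins included, 9 had a positive and 2 a negative difference. HDAC1, a direct target of chidamide, rose in Raji from 112 and 109.7 to 155 and 154 FPKM and fell in Raji-4RH from 127 and 128 to 116 and 107 FPKM. HDAC11 rose from 0.222 and 0.197 to 2.61 and 2.94 FPKM in Raji-4RH and from 0.374 and 0.32 to 0.662 and 0.809 FPKM in Raji, and HDAC7 rose by 0.33 in Raji-4RH and fell by 0.43 in Raji.

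**Figure D4:**
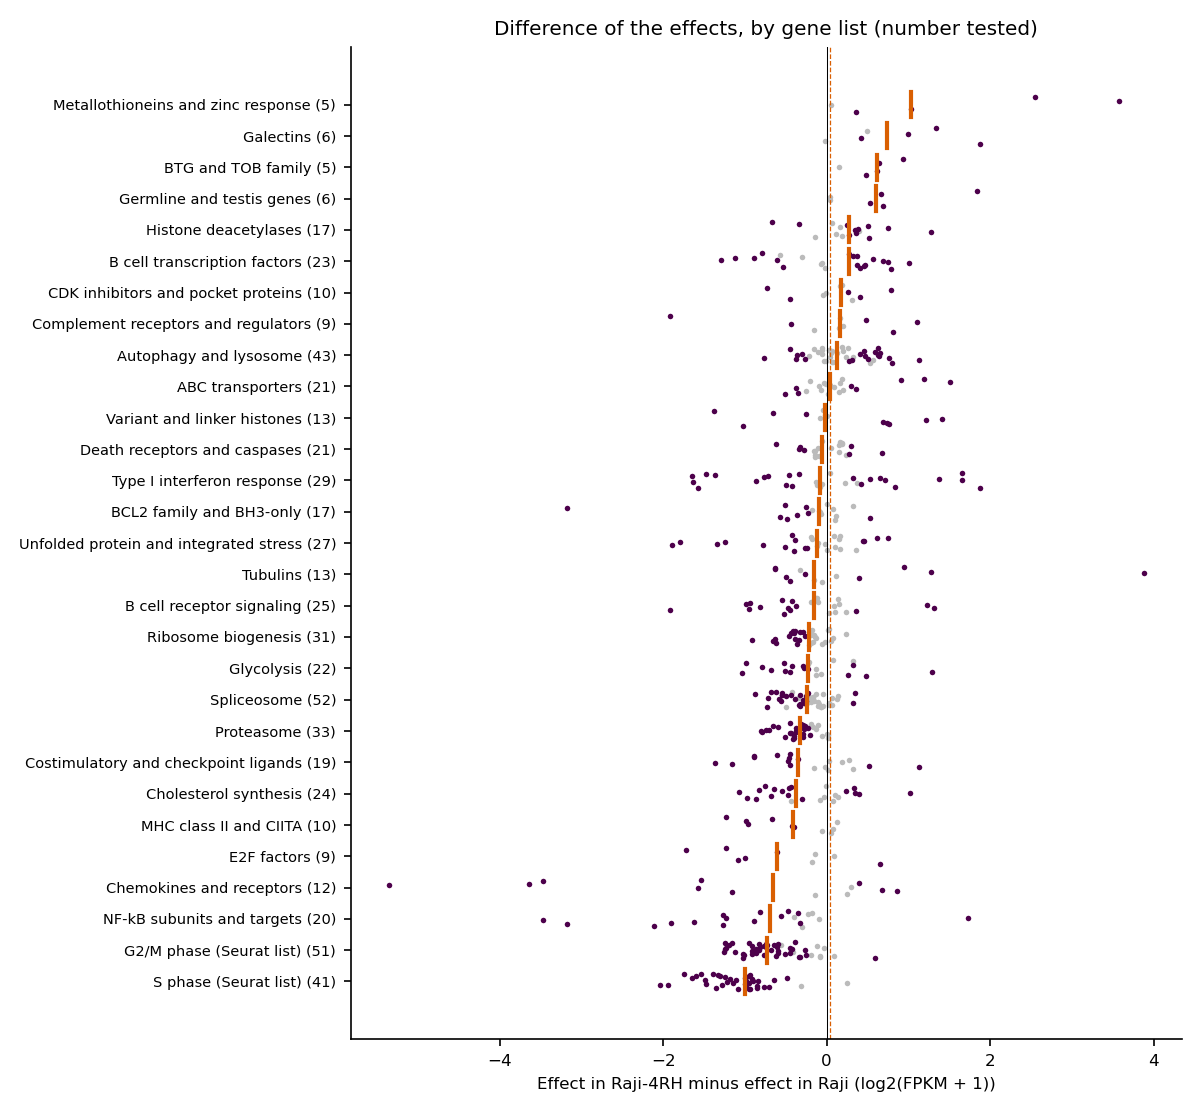
Difference of the effects (effect in Raji-4RH minus effect in Raji, log2(FPKM + 1)) for the members of 29 gene lists, with the number tested in brackets. Purple points are genes called in the interaction, grey points are not called, orange bars are list medians, and the dashed line is the median of all genes tested, 0.04. The S phase and G2/M lists lie lowest and the metallothioneins highest.

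In the BCL2 family 8 of 17 genes were called and among the death receptors and caspases 7 of 21, beside 48.8% of all genes tested. Of the BCL2 family, 7 had a negative difference, led by BCL2A1, and 1 a positive one, HRK, a BH3-only gene of 5.13 and 4.45 FPKM in Raji-4RH chidamide. Among the death receptors and caspases, 4 had a negative and 3 a positive difference. TNFRSF1A, a TNF receptor, rose by 0.82 in Raji and 0.21 in Raji-4RH. CASP10 was called at 0.67 but turned to -2.47 on the recovered reads (adjusted p = 0.031, limma voom), being at most at 0.00653 FPKM in Raji DMSO.

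Of 13 variant and linker histones, 5 had a positive and 4 a negative difference. HIST1H1C, a linker histone, rose from 3.57 and 3.67 to 18.6 and 17 FPKM in Raji-4RH and from 3.23 and 2.17 to 4.54 and 4.64 FPKM in Raji. H2AFX, the histone marked at DNA breaks, fell from 86.3 and 95.9 to 35.2 and 40.1 FPKM in Raji-4RH and was between 154 and 182 FPKM in Raji. Of the 6 galectins and their ligand, 4 had a positive difference and none a negative one. LGALS1 rose from 29.6 and 33.7 to 255 and 242 FPKM in Raji-4RH and from 0.461 and 0.632 to 3.8 and 3.58 FPKM in Raji, and its difference of 1.33 was not called on the recovered reads (0.25, adjusted p = 0.64, limma voom). Another of the 4 was not called on the recovered reads either (1.04, adjusted p = 0.055, limma voom). Of 27 germline genes placed, 6 passed the filter on level, which the 2 libraries of 1 group suffice to pass. Of these, 4 had a positive difference, which the filter itself favours for genes high in Raji-4RH chidamide alone. The largest was that of TEX19, a gene of the placenta and testis. It rose from 0.468 and 0.658 to 34.3 and 28.9 FPKM in Raji-4RH and from 0.34 and 0.667 to 7.72 and 7.64 FPKM in Raji. Of 21 ABC transporters, 5 had a positive and 3 a negative difference. ABCB1, the drug efflux pump P-glycoprotein, rose from 0.909 and 0.991 to 5.47 and 6.25 FPKM in Raji-4RH and from 0.0436 and 0.0342 to 0.226 and 0.331 FPKM in Raji, a difference of 1.51 that was -0.07 and not called on the recovered reads (adjusted p = 0.93, limma voom).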

How the data were processed

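RNA-seq libraries of Raji and Raji-4RH cells were compared. RNA was taken from cells harvested by flow sorting, and libraries were made with a NEBNext Ultra kit. The processing notes of the submitters name HISAT2 2.0.5, SAMtools 1.7, HTSeq 0.9.1, DESeq2 1.22.2 and hg38. The annotation release is not given in the sources used here. The authors deposited 1 table of FPKM values with gene lengths. The kit is not stated to mark strand, so reads of overlapping and antisense genes cannot be told apart.

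Multiplied by length and library total, 100% of non-zero FPKM values came out as whole reads (within 0.01 reads). Only 63305 of the 63967 rows add up to the library totals, and the last 662 rows hold the reads of the first 662 again. The labels thus outnumber the values, and past an early row the values lie below their labels. Values were moved up by 1 to 14 rows in 11 stretches and rescaled to the length of the gene named, and 28 labels between stretches were skipped. Of 219 genes of housekeeping families past the first shift, 195 were at 5 FPKM or more at the placed row and 81 at the label row. A gene was tested where 2 or more libraries reached 1 FPKM, and 7433 placed genes failed this filter. The 2 libraries of 1 group suffice to pass it. TUBB4A, TNFAIP2, OAS3, ENO2, HDAC11, ABCB1 and CASP10 reached 1 FPKM only in Raji-4RH chidamide. CXCL9, CCL17, CD274 and OPTN did so only in Raji chidamide. For such genes the direction of the difference follows in part from the filter.

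The test was limma's moderated test (lmFit, then eBayes with an intensity trend) of log2(FPKM + 1), with a pseudocount of 1 FPKM, in 1 fit of 4 group means over 8 libraries, two-sided, with Benjamini-Hochberg adjustment over all genes tested at 0.05. Intervals cover 95%. An exact permutation test of 2 libraries against 2 cannot go below p = 0.333 and was not used. Fits were tested on simulated data first. Motifs were searched in the 250 bases before the RefSeq start, for 8386 of the 10710 genes tested. R 4.3.3, limma 3.58.1, Python 3.11.15, pandas 2.3.3, numpy 2.4.6 and matplotlib 3.10.9 were used.

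The comparison, gene lists and rules were chosen with earlier results of these data known. Genes named were, among those averaging 5 FPKM or more, the 8 largest differences in each direction without overlap between libraries, the 5 largest in each direction among those moving oppositely, the 5 largest effects in each line where the other was under 0.1, and the 3 largest rises and 3 largest falls with effects of at least 1 and an interval within 0.25. The highest and lowest called member of each list and the genes that the study followed were added, and 8 list extremes that were not called were left out. A further 41 genes were named after their values were seen. Of these 130 genes, 10 are not printed. Alternatives were other scalings, pseudocounts and filters, limma without trend, a replicate block, limma voom on recovered reads, thinned reads, unshifted rows, each library left out, and, chosen after seeing the data, library weights by group. Some genes are not reported here.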

Additional observations from a re-analysis of the deposited data

Results flagged for a closer look

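The effect of chidamide differed between Raji and Raji-4RH for 5231 of 10710 genes by the test of the difference itself (limma, adjusted p under 0.05). In the 10 genes chosen for opposite directions, both chidamide libraries lay above both DMSO libraries in one line and below them in the other. The genes were chosen because both effects were called with opposite signs, so this follows largely from the choice. METRNL (difference 2.01), RGCC (1.88), VPREB1 (1.704), RASSF6 (1.43) and BMP7 (1.38) rose in Raji-4RH and fell in Raji. ASB2 (difference -2.42), HIVEP3 (-2.29), IL32 (-2.05), SCIMP (-2.02) and ACTB (-1.42) fell in Raji-4RH and rose in Raji.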

How the results depend on the processing

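Of 2401 differences of named genes under 19 alternatives, 2359 kept their direction and their side of the threshold, 14 lost and 5 gained the call, and 23 turned. None of the named genes called lost its call when any 1 library was left out, but 15 lost it or turned on the recovered reads with limma voom, where genes near 0 in one line are compared by relative change. The total of 5231 genes became 2178 over the genes whose rows are not shifted alone (1132 positive, 1046 negative), where fewer genes were tested. In that setting 3326 genes were called in Raji-4RH and 2702 in Raji, with 171 in opposite directions, 874 further in Raji-4RH, 181 further in Raji, 700 called in Raji-4RH alone and 225 in Raji alone. A minimum difference of 1 left 676 genes, and no filter on low values gave 2881 genes called in Raji-4RH alone. With 1 library left out, where the lone library is assumed to vary like the other groups, 4044 to 6042 genes were called, with 230 to 497 in opposite directions, 1313 to 2446 further in Raji-4RH and 246 to 465 further in Raji. The lowest of these counts came without replicate 1 of Raji chidamide (230 and 1313) or replicate 1 of Raji-4RH DMSO (246), with 233 and 254 without their replicate 2. The replicate block gave 4915 genes (2729 positive, 2186 negative). The replicate numbers share no stated source, and deviations of libraries with the same number correlated between -0.279 and 0.166, so the numbers were not taken as pairs. With quantile normalization 2517 genes were positive and 2534 negative, against 2910 and 2321, a share of 49.8% positive. Of the 5231 genes, 4061 were called in the same direction with quantile normalization. With library weights by group, which gave the Raji-4RH chidamide libraries a weight of 0.389, 5111 genes were called. The effect of chidamide was then called in 7573 genes in Raji-4RH and 7074 in Raji, against 8022 and 6421. Of the 5111 genes, 1519 were called in Raji-4RH alone and 709 in Raji alone, against 1802 and 601.

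Medians of 6 lists near 0 turned. The interferon median became 0.33 with limma voom and 0.32 with rows not shifted, and that of death receptors 0.026 with a pseudocount of 0.1. Quantile normalization gave medians of 0.15 for variant histones, 0.018 for the unfolded protein list, -0.024 for ABC transporters and -0.039 for complement genes, the last also at -0.14 with rows not shifted. The histone median lay between -0.030 and 0.035 with 1 library left out. On the recovered reads CRIP3 turned to 0.0068, CASP10 to -2.47, OPTN to 0.61, ABCB1 to -0.071 and EBI3 to 1.53, and EBI3 to 0.71 with a pseudocount of 0.1. Quantile normalization turned CASP10 to -0.024. Of the genes with like effects, it turned ARL6IP5 to 0.16, BDH1 to -0.14, FAM136A to 0.015 and PMF1 to -0.050. Median-centred libraries turned TP63 to -0.028 and PMF1 to -0.033, and thinned reads turned TP63 to -0.027. With 1 library left out, TP63 lay between -0.055 and 0.071, ARL6IP5 between -0.12 and 0.0013, BDH1 between -0.021 and 0.10, FAM136A between -0.12 and 0.045, PMF1 between -0.11 and 0.11 and SQSTM1 between -0.059 and 0.14. The cause of these changes was not tested. Depth limits genes under 1 FPKM, where some libraries held fewer than 10 reads.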
